A study of Mus musculus with 6 samples.

Results

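The Tagap locus was taken as all peaks overlapping chromosome 17 from 7980000 to 8220000 (mouse build mm9), a 240 kb window set around Tagap and its flank. The window was chosen by its peaks, whose positions and scores were already known. It held 14 of the 8925 peaks listed in the 3 peak lists of a T-bet ChIP-seq study. These were 10 of 7996 peaks in wild-type (WT) replicate 1, 4 of 851 in WT replicate 2 and 0 of 78 in the T-bet knockout (KO) library. For that reason their number and scores are descriptions and were not tested.

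The study mapped T-bet in iTreg cells, induced regulatory T cells that are made in culture from naive CD4 T cells. They are not regulatory T cells taken from the thymus or from fat tissue. Naive CD4+ T cells were sorted from spleen and lymph nodes of mice aged 4 to 10 weeks, stimulated with antibodies to CD3 and CD28 fixed to the plate (10 µg/ml each), and cultured for 7 days with TGF-β1 at 33 ng/ml and IL-2 at 20 ng/ml. The groups used were 2 WT ChIP libraries and 1 T-bet KO ChIP library, all labelled Balb/c and precipitated with the same rabbit anti-T-bet serum, so that the KO library measures what the serum recovers without T-bet. The labels name neither the KO allele nor whether the WT replicates came from separate mice or cultures, and peak lists hold no expression values with which to check the cell type or the loss of T-bet.

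T-bet, a transcription factor of the T-box family, directs T helper 1 differentiation and is also made by a subset of regulatory T cells. It binds DNA through its T-box domain, often at enhancers that lie far from a start site. Tagap encodes a GTPase-activating protein made in activated T cells. The human gene lies in a region associated with several autoimmune diseases. In the RefSeq annotation of another build, GRCm38.p6, the protein-coding neighbours of Tagap are Fndc1, which encodes a fibronectin type III domain protein, on one side and Rsph3a, which encodes a radial spoke protein of cilia, on the other, and the long non-coding RNA gene Gm1604a overlaps Tagap. Coordinates of that build cannot be set against those of the peaks. Whether a peak lies in an exon, an intron, a UTR or a promoter of any of these genes was therefore not determined.

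The RefSeq sequence upstream of the gene is shown as the reference sequence of the locus, since no mm9 sequence of the peaks was used here. It covers the 250 bases before the annotated Tagap start site, on the plus strand of GRCm38.p6 at chr17:7925750-7925999. Capitals mark the match to CCGGAA, the only Ets spelling searched, so any other Ets spelling is left unmarked.
Tagap upstream sequence: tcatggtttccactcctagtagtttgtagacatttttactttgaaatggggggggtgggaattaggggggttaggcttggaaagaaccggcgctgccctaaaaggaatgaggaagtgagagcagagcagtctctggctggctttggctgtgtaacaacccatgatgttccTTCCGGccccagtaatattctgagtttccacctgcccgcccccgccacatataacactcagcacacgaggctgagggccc
Both strands were searched for short spellings of the T-box half-site, the kind of sequence T-bet recognises, and of the sites of Ets and Runx factors, which are abundant in T cells. The T-box letters GTGTGA had 0 matches here and were found in 12.3% of 32851 mouse upstream sequences of the same length. The longer spelling GGTGTGA, which contains them, had 0 matches and a share of 3.33%, and the looser GGTGTNA, which includes the longer one, had 0 matches and a share of 8.61%. The Ets letters CCGGAA had 1 match, on the minus strand from position -80 to -75 counted from the start site, and a share of 12.0%. The Runx letters TGTGGT had 0 matches and a share of 14.0%. These counts describe letters only; no peak could be placed on this sequence.

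The locus carried 1 dominant site that was strong in both WT libraries. In WT replicate 1 it spanned 8069068 to 8069512 (445 bp) with a score of 1311.85, rank 19 of 7996. In WT replicate 2 it spanned 8069065 to 8069467 (403 bp) with a score of 512.70, rank 10 of 851. No peak was listed in the KO library. The score is the authors' peak-caller value, given without a stated scale and used here only within a list. The left edges of the peak differed by 3 bp and the right edges by 45 bp between the replicates, and the 400 bp in common made up 89.9% of the replicate 1 peak and 99.3% of the replicate 2 peak. Of the 19 replicate 1 peaks that scored at least as high, 5, or 26.3%, met a replicate 2 peak, and the Tagap site was 1 of them. Among the 726 replicate 1 peaks that met a replicate 2 peak and no KO peak it ranked 4 by either score.

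**Figure D1:**
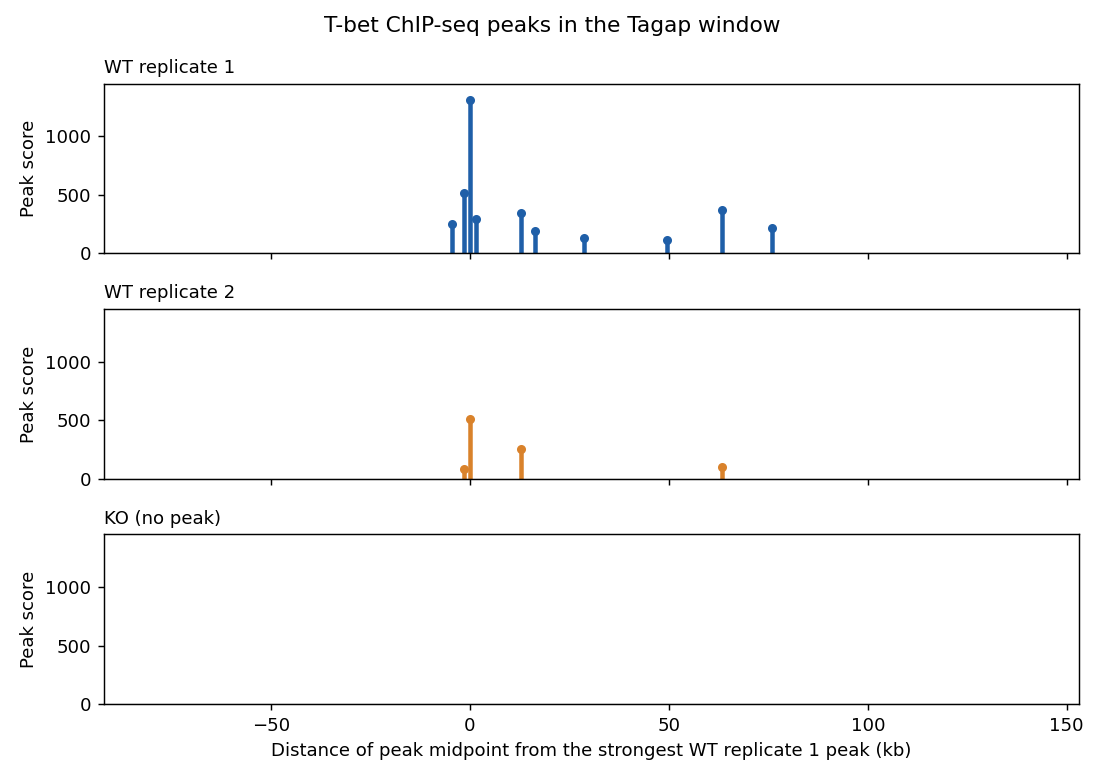
Peak scores (y axis, the authors' values) in the 3 libraries against the distance in kb of each peak's midpoint from the strongest WT replicate 1 peak; each line is 1 peak and the x axis spans the 240 kb window. Replicate 1 has 10 peaks, replicate 2 has 4 at the same positions, and the KO panel is empty.

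A second peak lay 1.44 kb to the left (lower coordinates) of the dominant one, midpoint to midpoint. It spanned 8067586 to 8068106 in replicate 1, where it scored 516.76 (rank 160), and 8067555 to 8068066 in replicate 2, where it scored 81.14 (rank 682 of 851). It was the second highest peak of the window in replicate 1 and the lowest in replicate 2, close to the lowest score of that list, 70.10. The interval between these neighbours was 961 bp in replicate 1, so the pair was resolved as separate peaks in each WT library. At this second site the replicates shared 92.3% of the replicate 1 peak and 93.9% of the replicate 2 peak.

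The third shared site lay 12.78 kb to the right of the dominant one, at 8081817 to 8082322 in replicate 1 and 8081812 to 8082279 in replicate 2. It scored 343.44 (rank 437) in replicate 1 and 250.73 (rank 67) in replicate 2. Here the order was the other way round: it was the lowest of the 4 shared sites in replicate 1 and the second highest in replicate 2. The fourth shared site lay 63.29 kb to the right, at 8132361 to 8132790 in replicate 1 and 8132325 to 8132801 in replicate 2. Its scores were 366.34 (rank 369) and 102.10 (rank 465). The replicate 1 peak lay wholly inside the replicate 2 peak, and the midpoints differed by 12.5 bp. Apart from the dominant site, the order of the shared sites by score therefore differed between the WT libraries, while their positions matched within 35.5 bp at the midpoint. Ranks from lists of such different length do not measure a change in binding.

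All 4 replicate 2 peaks of the window met a replicate 1 peak, against 85.4% of the whole replicate 2 list. Of the 10 replicate 1 peaks, 4 met a replicate 2 peak, against 9.50% of the whole replicate 1 list; none of the 4 met a KO peak, and 9.08% of that list met replicate 2 and not KO. The 4 were the highest-scoring replicate 1 peaks of the window, from 343.44 to 1311.85, and the 6 without a counterpart scored 114.11 to 296.48, so the groups did not overlap in score. Across the genome, 54.9% of the 437 replicate 1 peaks scoring 343.44 or more met a replicate 2 peak. Of the 3038 scoring between 114.11 and 296.48, 10.7% did. The replicate 2 list is much the shorter, its depth is unknown, and a site missing from it is not shown to be unbound.

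**Figure D2:**
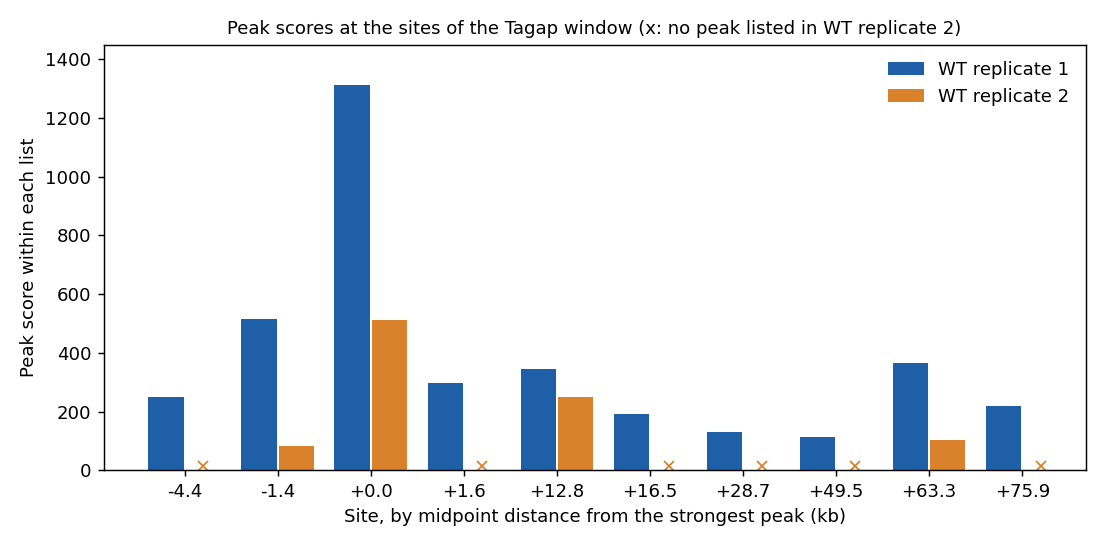
Scores of the 10 sites (y axis, the authors' values, from 0) ordered along the chromosome and named by the midpoint distance in kb from the strongest peak; blue bars are WT replicate 1, orange bars WT replicate 2, and a cross marks a site with no replicate 2 peak. The 4 sites with an orange bar are those with the 4 highest blue bars; scores have no common scale between the lists, so bars are compared within a colour.

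The 6 replicate 1 peaks without a replicate 2 counterpart fell into flanking and distal positions. Peaks on either side of the leftmost shared pair lay at 8064697 to 8065041 (score 248.10, rank 895) and 8070739 to 8071111 (score 296.48, rank 623). Together with the shared pair they formed a run of 4 peaks within 6.42 kb, of which 1684 bp were covered by peaks. Of 7932 runs of 4 consecutive peaks in the replicate 1 list, 97 were at least as tight. They fell at 67 separate places, this one included. The length and span of the run were taken from these same peaks, so the count is a description. A peak at 8085629 to 8085911 scored 191.60 (rank 1547) and followed the third shared site after an interval of 3306 bp. Between it and the fourth shared site stood the weakest peaks of the window, at 8097915 to 8098135 with a score of 129.04 and at 8118676 to 8118913 with a score of 114.11. The last peak, at 8145118 to 8145320, scored 218.04 (rank 1194) and was the narrowest, at 203 bp.

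The replicate 1 peaks of the window scored above most of their list, as the plot of ranks shows. Their median score was 272, against 108 for the list, and their median width 359 bp, against 175 bp. For the 4 replicate 2 peaks the median score was 176, against 108, and the median width 472 bp, against 353 bp. Those scoring 81.14 and 102.1 lay below the replicate 2 list's median score, and those scoring 250.73 and 512.7 above it. By rank, 0.225% of replicate 1 peaks scored higher than the window's strongest peak and 45.4% higher than its weakest, and for replicate 2 the shares were 1.06% and 80.0%. Width ordered the peaks differently, and the dominant site ranked 245 by width in replicate 1 and 280 in replicate 2. The widest peak of the window in both lists was instead the one 1.44 kb to its left, at 521 bp and 512 bp.

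**Figure D3:**
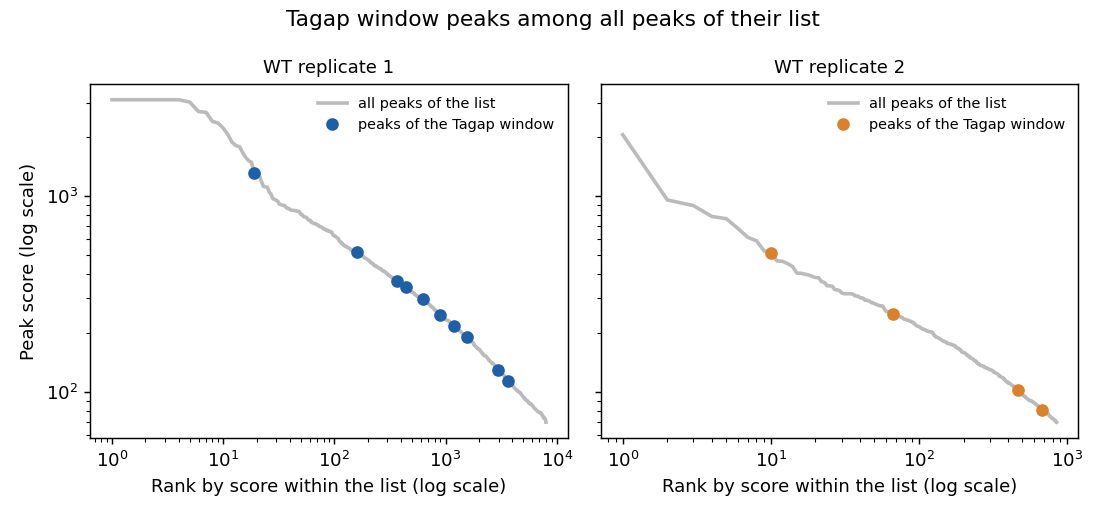
Score (y axis, log scale) against rank by score (x axis, log scale) for all peaks of WT replicate 1 (left) and WT replicate 2 (right), with the peaks of the Tagap window as points. The window's peaks run from rank 19 to rank 3633 of 7996 in replicate 1 and from rank 10 to rank 682 of 851 in replicate 2.

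No KO peak lay in the window, and none of the 14 WT peaks met one. Over the whole lists 0.550% of replicate 1 peaks and 5.41% of replicate 2 peaks did, so a count of 0 at 14 peaks is close to that background. The nearest KO peak lay 3.44 Mb to the left of the first WT peak, at 4626159 to 4626615, and the next on the right was 27.2 Mb from the last. The list holds only peaks with scores from 70.35 upward. Signal below that threshold at the Tagap sites was not measurable from it, and a single KO library allows no test between the genotypes.

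The replicate 1 peaks occupied an 80.6 kb stretch inside the window. The first peak lay 84.7 kb from the left edge of the window and the last 74.7 kb from the right edge. Just outside, the nearest replicate 1 peak on the left was 611 kb beyond the edge, at 7368288 to 7368689, with a score of 275.96, and replicate 2 had a peak at the same place, at 7368292 to 7368641, with a score of 90.44. On the right, the nearest replicate 1 peak was 65.7 kb beyond the edge, at 8285749 to 8285936. Its score of 94.64 was lower than that of any replicate 1 peak inside. The next replicate 2 peak on that side lay 4.21 Mb from the last peak of the window. In the neighbouring stretches of equal length, replicate 1 had 0 peaks on the left and 4 on the right, and replicate 2 had 0 on either side. For comparison, 7690 of 11046 stretches of this length across the genome held 0 replicate 1 peaks and 244 held exactly 4. Within the window the median interval between neighbouring replicate 1 peaks was 10.7 kb, against 60.2 kb for the list.

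The genome was divided into 11046 tiles of 240 kb, 1 of which was the Tagap window, to show how common such groups of peaks were. At least 10 replicate 1 peaks were found in 58 tiles (0.525%), and at least 4 replicate 2 peaks in 25 (0.226%). At least 4 replicate 1 peaks that met a replicate 2 peak and no KO peak were found in 23 tiles (0.208%). The highest count among these tiles was 7. Some of these tiles held fewer replicate 2 peaks than this count, while in the Tagap window each of the 4 met a separate replicate 2 peak. The Tagap window was thus 1 of several such groups and not the densest, with 16 tiles, itself included, at a count of 4. On chromosome 17 it held 10 of the 398 replicate 1 peaks, or 2.51%. Of the 38 there that met replicate 2 and not KO, it held 4, or 10.5%. Since the window was selected for its peaks, nothing is read from these shares.

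**Figure D4:**
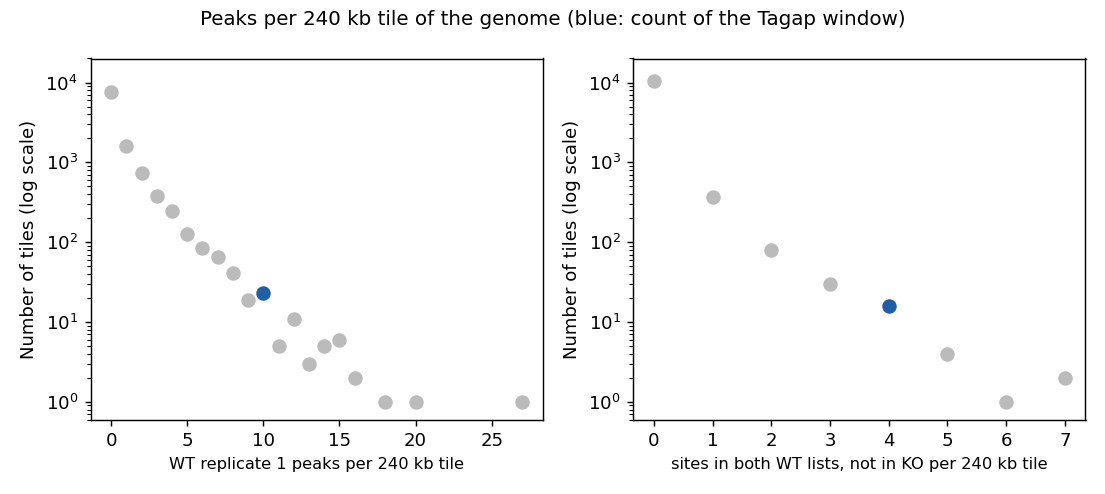
Number of 240 kb tiles (y axis, log scale) by the number of WT replicate 1 peaks (left) or of sites in both WT lists and not in the KO list (right) they hold; blue marks the count of the Tagap window. The window's counts of 10 and 4 lie in the sparse right-hand part of each distribution. Tiles of up to 27 peaks and 7 sites lie beyond them, with each site counted as a replicate 1 peak.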

How the data were processed

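Peak lists of the 3 ChIP libraries were analysed; the 3 input libraries were not analysed here. Each list belonged to 1 library and was not pooled. Per the submitters' processing notes, CASAVA, Bowtie2, MACS 1.4 and build mm9 were used; their settings and each control were not given in the sources used here. Libraries of 150 to 350 bp were read from 1 end over 35 or 50 bp, and depth per library is unknown. The score in column 5 is the peak caller's value as deposited by the authors, with no stated scale; it was compared within a list only. Starts were converted to count from 1.

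Peaks sharing at least 1 bp were counted as met. Tiles used the mm9 chromosome lengths of GenomeInfoDb 1.38.1. No statistical test was made, since peaks are not replicates and the KO group has 1 library. The overlap search was tested on simulated data and found 200 of 200 planted overlaps and 0 of 100 others. Alternatives were a score of at least 100, joining within 500 bp, 50% reciprocal overlap, midpoints within 250 bp, a window wider by 100 kb on each side, KO peaks extended by 1 kb, no KO filter, a shortened replicate 1 list, width in place of score, and leaving out each WT replicate. All peaks of the window were named. The window, motifs and lists were chosen with earlier results of these data known. The deposited lists of replicate 2 and KO carry the same leading number and replicate 1 another. What this number marks is unknown, and a batch it might mark cannot be told apart from the differences between the WT replicates. The counts of peaks near related genes could not be made without an annotation of mm9. Python 3.11.15, numpy 2.4.6 and matplotlib 3.10.9 were used.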

Additional observations from a re-analysis of the deposited data

How the results depend on the processing

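Of 33 alternative values, 30 stayed within 1.5 times the main value. Several of these could not have moved, so the tally does not measure stability. Joining within 500 bp could not act where the smallest interval between replicate 1 peaks was 961 bp. The score limit of 100 lay below every replicate 1 peak of the window, the lowest being 114.11. The KO counts and the count without the KO filter were fixed by the absence of KO peaks near the window. The count of sites in both WT lists and not in the KO list was 4; leaving out 1 WT replicate gave 4 (without replicate 1) to 10 (without replicate 2), because the longer list then stands alone. It was 3 with scores of at least 100, which removes the replicate 2 peak scoring 81.14, and 4 under the other alternatives run for it. With width in place of score, the rank of the dominant site moved from 19 to 245 in replicate 1 and from 10 to 280 in replicate 2. With replicate 1 reduced to its 851 highest peaks, all 4 replicate 2 peaks had a counterpart. The replicate 1 peaks they met ranked 19, 160, 369 and 437, so this cut could not have removed them. The share of the whole replicate 2 list under this cut was not computed. No peak of the window met a KO peak under any alternative run, KO peaks extended by 1 kb included. The nearest KO peak lay 3.44 Mb away, so none of these alternatives could have produced a match. No paired analysis was possible because the KO group has 1 ChIP library and the inputs, numbered like the WT libraries, were not analysed here. Unknown depth limits what the absence of a peak from the shorter lists can show.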
